A study of Mus musculus with 4 samples.

Results

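The genes described here are 10 transcription factors that guide fat cell formation, 4 of the C/EBP family (Cebpa, Cebpb, Cebpd and Cebpg) and 6 of the Krüppel-like factor, or KLF, family (Klf2, Klf3, Klf4, Klf5, Klf6 and Klf9). They were found on the arrays by the gene name in the scanner files, which gave 19 of the 41174 probes that are not controls. All 10 genes had a probe bright enough to test, and 18 of the 19 probes were tested, out of 26054 tested probes for 17736 genes.

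White adipose tissue came from female C57BL/6 mice, an inbred strain, and the labels name no transgene or deletion in either group. From 8 weeks of age the mice of the high fat group (HFD) ate High fat diet 32 and those of the low fat group (LFD) ate the facility's standard feed CE2, for 18 weeks. Each diet has 2 one-colour arrays, and the series text describes every sample as fat mixed from 3 mice. No depot is given in the labels. Whether the 2 samples of a diet were separate pools is not stated either. The p-values here thus reflect sample-to-sample spread, which may not include the spread between separate pools of mice.

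C/EBP proteins bind DNA as pairs held together by a leucine zipper, and KLF proteins bind GC-rich and CACCC letters through 3 zinc fingers near their end. In cultured mouse preadipocytes C/EBP-beta and C/EBP-delta appear within hours of the hormonal signal and switch on C/EBP-alpha and PPAR-gamma, which then keep the fat cell program running. KLF4, KLF5, KLF6 and KLF9 are known there as promoters of this cascade, and KLF2 and KLF3 as brakes on it. In whole fat the same genes are also used by macrophages, vessels and epithelia.

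The 4 probes below lie in protein-coding sequence of the binding or pairing domain, and are shown because they hold the parts that define the 2 families. In the C/EBP probes the capitals mark leucine codons spaced 7 codons apart in the open reading frame, the repeat that forms the zipper. In the Klf5 probe they mark the 5 codons of the linker that joins neighbouring zinc fingers, a stretch much alike across the family. Positions are those of the files, in mouse build mm9, and the sequences run 5′ to 3′.
Cebpa, chr7:35905361-35905420, plus strand: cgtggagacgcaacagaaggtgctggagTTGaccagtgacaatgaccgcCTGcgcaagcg
Cebpb, chr2:167515309-167515368, plus strand: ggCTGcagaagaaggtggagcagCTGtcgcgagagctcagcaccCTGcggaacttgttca
Cebpg, chr7:35835477-35835536, minus strand: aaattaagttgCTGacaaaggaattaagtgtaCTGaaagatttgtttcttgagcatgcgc
Klf5, chr14:99702656-99712388, plus strand: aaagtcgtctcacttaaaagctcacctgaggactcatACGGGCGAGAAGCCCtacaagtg
The Klf5 probe is 60 bases long but its position spans 9733 bases of the genome, so it crosses an intron, and the same holds for 1 Klf3 probe, which spans 581 bases. No gene annotation of build mm9 was used here, so exon and UTR are not given for the other probes.

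All 4 arrays shared 1 slide. Of 43379 spots that are not controls, 22729 to 28938 were well above background on the HFD arrays and 28090 to 29649 on the LFD arrays, HFD replicate 2 having the fewest and the strongest negative control signal (109.5, against 63.5 to 97.0 on the others). The tissue label was checked against 10 adipocyte markers, all of them tested and 1 called lower in HFD (Retn), with a summed level of 1418 and 1503 in HFD and 1479 and 1613 in LFD, in units of each array's 75th percentile.

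Most of these factors differed little between the diets. Of the 18 tested probes 1 was called, that of Klf5, which was lower in HFD, and none was called higher, by limma at an adjusted p under 0.05; 4 had an unadjusted p under 0.05. The Klf5 probe entered the test through LFD, where it is high, and is not tested when 4 arrays must be well above background; then none is lower and Klf6 is higher. Over all tested probes 10.7% were called, 5.43% higher and 5.27% lower. Counted by the brightest tested probe, 1 of 10 genes was called, against 11.4% of all genes (5.75% higher and 5.61% lower), so the count of members lies near the background. With arrays scaled on the median the split over all genes was 852 higher and 1334 lower, against 1019 and 995 as analysed.

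The intervals of the difference were narrow for most members, although they rest on sample-to-sample spread that may not include the spread between separate pools. For 16 of the 18 probes the 95% interval of the difference lay inside a 2-fold change in either direction, the exceptions being the tested probe of Klf5 and that of Cebpd. By the brightest probe 5 genes had a positive and 5 a negative difference, and the median difference over tested probes was -0.08 on the log2 scale, against 0.02 over all tested probes. The diets did not overlap for 10 probes, with HFD higher for 3 and lower for 7; among all tested probes 67.9% did not overlap, 35.3% higher and 32.6% lower. By the brightest probe this held for 6 of 10 genes, 2 higher and 4 lower, against 68.9% of all genes, 36.2% higher and 32.7% lower.

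**Figure D1:**
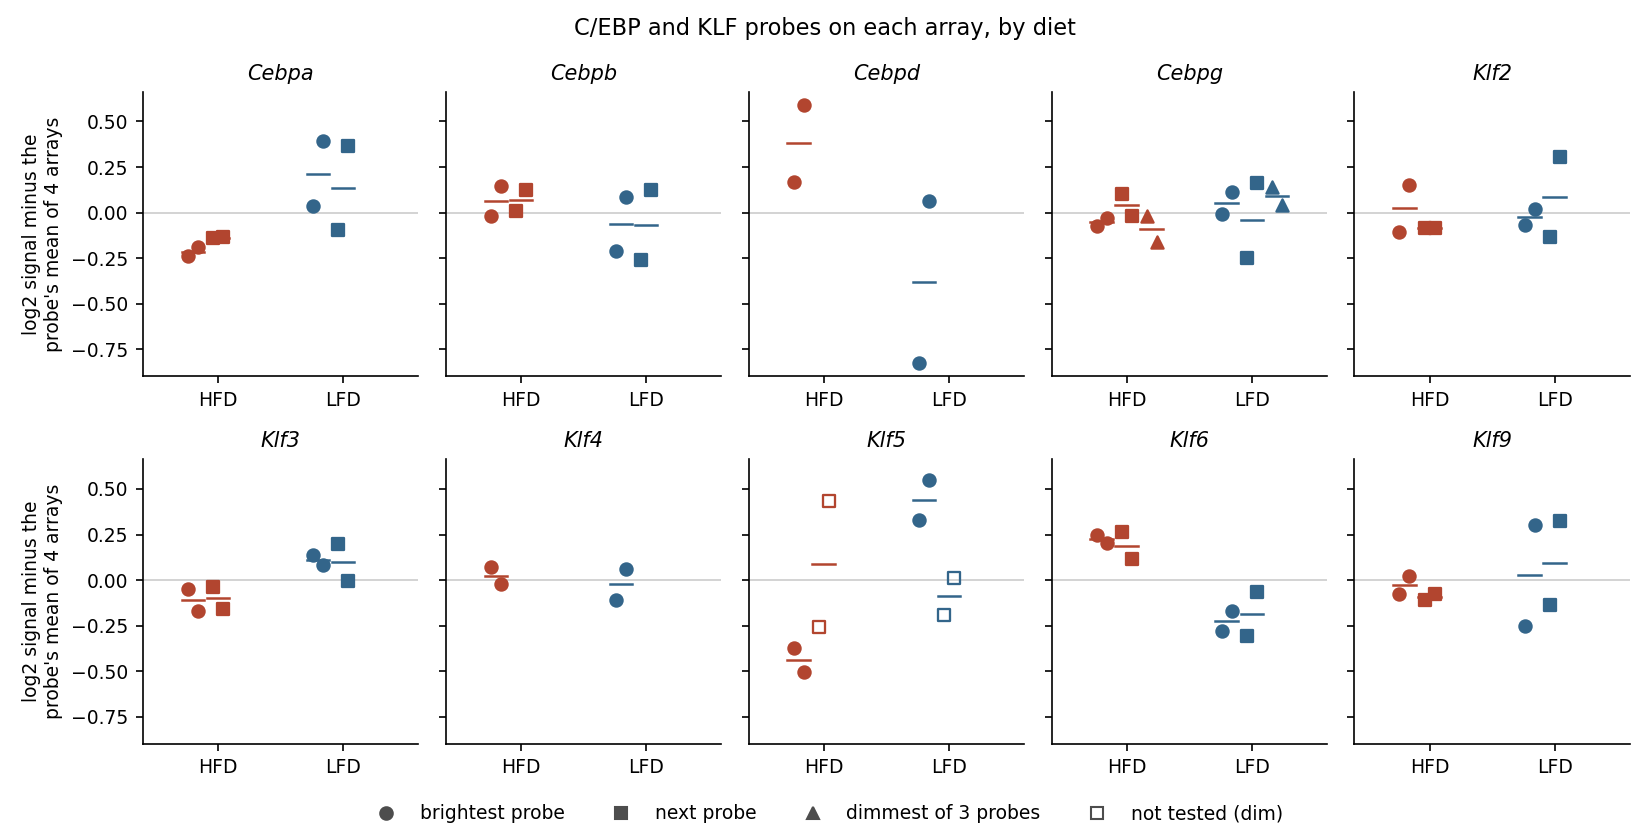
Log2 signal of each C/EBP and KLF probe minus that probe's mean over 4 arrays, with HFD arrays left and LFD arrays right in each panel; points are arrays, short lines are means of 2 arrays, and open squares mark the Klf5 probe that was not tested. The diets do not overlap for 10 of the 18 tested probes, among them those of Klf5, Klf6, Klf3, Cebpa and Cebpd, and Cebpd, Klf9 and Cebpa also show wide gaps between the 2 LFD arrays.

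**Figure D2:**
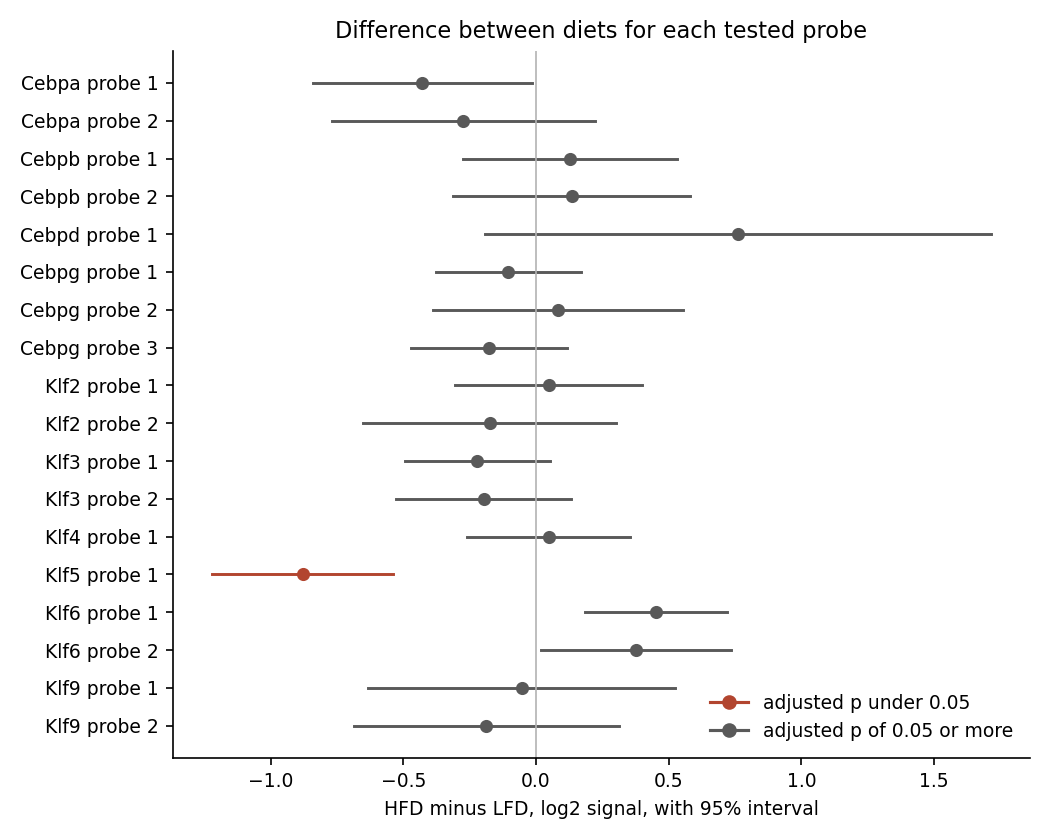
Difference in log2 signal, HFD minus LFD, for the 18 tested probes with 95% intervals from limma; probes of a gene are numbered from the brightest. The interval of Klf5 runs from -1.22 to -0.54 and is the only one of a called probe, and that of Cebpd is the widest.

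Klf5, a factor of dividing epithelial cells that also acts early in fat cell formation, was lower in HFD. Scaled to the 75th percentile of its array, its log2 signal was -3.24 and -3.37 on the HFD arrays, against -2.53 and -2.32 on the LFD arrays. Both HFD arrays lay below both LFD arrays, and the means were -3.30 ± 0.10 in HFD and -2.43 ± 0.15 in LFD (SD, n = 2 each). The difference was -0.88 on the log2 scale (SE 0.13), 1.84-fold lower in HFD by the measured signals, with an adjusted p of 0.0320 in limma. Since 1 of the HFD signals was not well above background and the probe was tested on the strength of LFD, neither the fold nor the call is firm. In bulk tissue fewer cells of a type and less RNA per cell cannot be told apart.

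This signal was dim. The processed signals were 90.9 and 75.6 in HFD, against 143 and 171 in LFD, and the probe was well above background on 1 of 2 HFD arrays and on both LFD arrays. The other Klf5 probe, at chr14:99704137-99704196, was not well above background on any array and was not tested. It lies inside the 9733 bases that the tested probe spans, so whether it reads the same spliced RNA is not known. With normexp background correction the difference was -0.42 and its adjusted p lay just above 0.05. The difference was -0.95 without HFD replicate 1, -0.81 without HFD replicate 2, -0.99 without LFD replicate 1 and -0.77 without LFD replicate 2. These fits leave a diet with 1 array and called fewer genes over the whole array, so the Klf5 call cannot be judged from them.

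Most tested epithelial and mesothelial markers were lower in HFD together with Klf5. Of 10 epithelial markers 6 were tested and 4 were called lower, with a summed level of 1.5 and 1.33 in HFD and of 7.97 and 8.49 in LFD. Krt18 weighs most in these sums, at a log2 signal of 0.02 and -0.26 in HFD, against 2.59 and 2.61 in LFD. Krt14 lay on the higher side (log2 difference 0.26) and was not called. Epcam, Cldn4, Elf3 and Esrp1 were too dim to test. Cdh1, among those called, was well above background on no HFD array and was tested only through LFD, where it is high. Its fold is a bound of at least 2.88. Grhl2 entered the test in the same way and was not called. Of 12 mesothelial markers 10 were called lower, with a summed level of 44.6 and 42.3 in HFD and of 75.7 and 78.4 in LFD. Their part in the Klf5 result was not tested.

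Among the other 17735 genes, the 3 whose 4 centred log2 values lay closest to those of Klf5 were Sox6, a developmental transcription factor, Hddc3 and the cell adhesion gene Cadm4. Their Euclidean distances over the 4 arrays were 0.03 for Sox6, 0.05 for Hddc3 and 0.06 for Cadm4. With 4 arrays many genes must lie close, and the distances are a description.

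Klf6, a factor that lowers the preadipocyte gene Dlk1 in cultured mouse cells and is also induced by injury, was the member nearest to a call on the higher side. Its brighter probe, at chr13:5869371-5869430, had a log2 signal of 4.15 and 4.11 in HFD, against 3.62 and 3.74 in LFD. The difference was 0.45 (SE 0.10, adjusted p = 0.0618 in limma), so it did not pass. The other probe, at chr13:5866706-5866765, read 2.33 and 2.18 in HFD and 1.76 and 2.00 in LFD, a difference of 0.38 (adjusted p = 0.137). On both probes each HFD array lay above each LFD array.

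The Klf6 result sat close enough to the threshold for 3 settings to move it across. The adjusted p of the brighter probe in limma was 0.0354 with normexp, 0.0378 when only probes well above background on 4 arrays were tested, and 0.0180 with the trend and robust options. These settings also called more of all genes: 1535 higher and 1182 lower, 1598 and 1310 of 14795, and 1826 and 1808, against 1019 and 995 as analysed. With the latter 2 settings the Klf6 difference itself stayed at 0.45. Over all 15 alternatives the difference ran from 0.36 to 0.53. Macrophage markers moved alongside, with 9 of 12 called higher and none lower and a summed level of 383 and 401 in HFD, against 222 and 199 in LFD. Their part in the Klf6 values was not tested.

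Dlk1, a marker and brake of preadipocytes, was 2.71-fold lower in HFD (log2 difference -1.44, SE 0.10, adjusted p = 0.0146 in limma), or -0.82 by the mean of its probes and -0.88 with normexp. A link between the Dlk1 and Klf6 values was not tested.

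**Figure D3:**
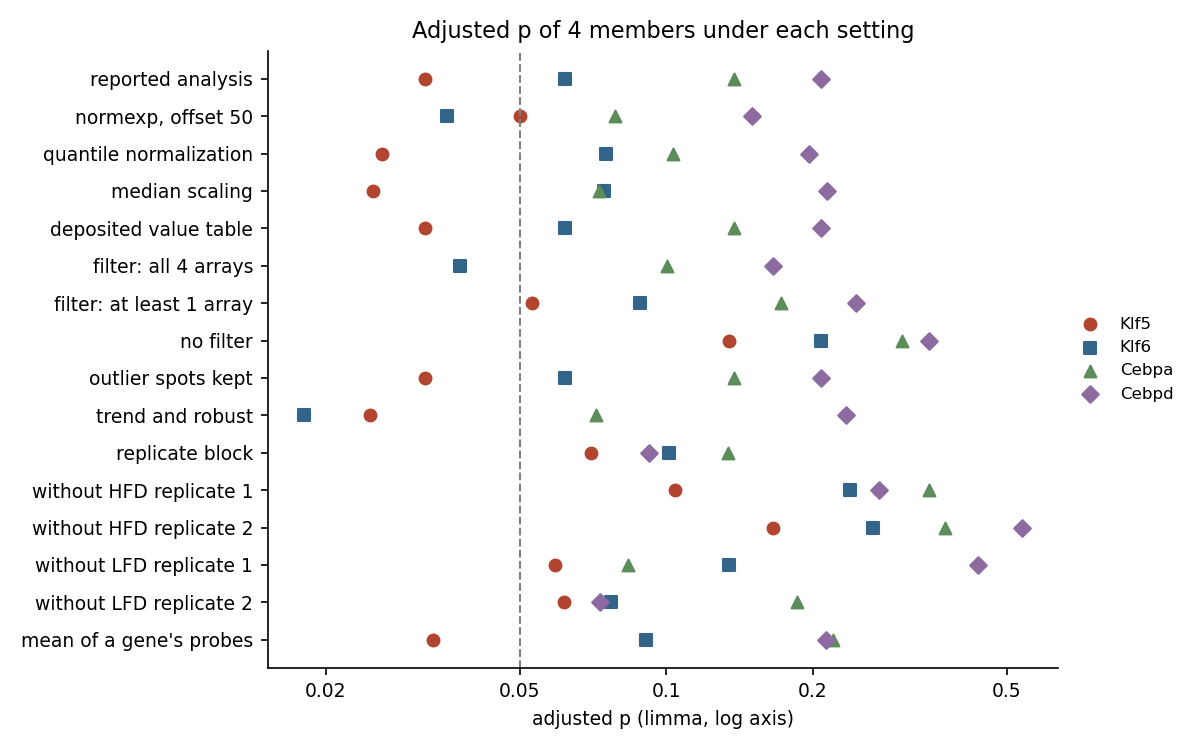
Adjusted p from limma (log axis) of the brightest tested probe of Klf5, Klf6, Cebpa and Cebpd, in the reported analysis at the top and under each alternative setting; the dashed line marks 0.05. Klf5 lies left of the line in the reported analysis and in 6 of 14 alternatives, Klf6 in 3 of 15, and Cebpa and Cebpd in none.

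Klf4 acts upstream of Cebpb in the early response of cultured mouse preadipocytes. Its 1 probe, at chr4:55540833-55540892, read 4.34 and 4.24 in HFD, against 4.16 and 4.33 in LFD. The diets overlapped, and the difference was 0.05 with a 95% interval of -0.26 to 0.35.

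Klf9, which is induced by glucocorticoids and thyroid hormone and aids Pparg expression, overlapped between the diets too. The brighter probe, at chr19:23239337-23239396, read 1.44 and 1.54 in HFD, against 1.26 and 1.82 in LFD, a difference of -0.05 (95% interval -0.63 to 0.53). The other, at chr19:23240138-23240197, differed by -0.19 (interval -0.69 to 0.31).

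Of the brakes, Klf2, which in mice represses Pparg and is also a flow-induced factor of endothelium, had probes of opposite sign. The brighter one, at chr8:74843761-74843820, read 4.43 and 4.69 in HFD and 4.47 and 4.56 in LFD, a difference of 0.05 (95% interval -0.31 to 0.40). The other, at chr8:74845137-74845196, differed by -0.17 (interval -0.65 to 0.30). None of 12 endothelial markers was called, and their summed level was 80.0 and 89.1 in HFD, against 84.3 and 84.9 in LFD.

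Klf3, a repressor that in mouse cells binds the Cebpa promoter, was lower on both HFD arrays than on both LFD arrays for each of its probes, without passing the test. The probe that crosses an intron, at chr5:65213568-65214148, read -0.57 and -0.69 in HFD, against -0.38 and -0.43 in LFD. The difference was -0.22 (SE 0.10, adjusted p = 0.205). For the other, at chr5:65220543-65220602, it was -0.20 (adjusted p = 0.311).

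Among the C/EBP genes, Cebpa, the factor of mature adipocytes, showed values on the low side in HFD. Its brighter probe, at chr7:35906517-35906576, read 4.14 and 4.19 in HFD, against 4.42 and 4.77 in LFD. The groups did not overlap, and the difference of -0.43 (SE 0.15, 95% interval -0.84 to -0.02) had an unadjusted p of 0.0444 and an adjusted p of 0.138. The zipper probe shown above read 1.24 on both HFD arrays and 1.28 and 1.74 on the LFD arrays, a difference of -0.27 (adjusted p = 0.341). Much of the spread lay within LFD: the brighter probe differed by -0.61 without LFD replicate 1 and by -0.25 without LFD replicate 2.

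Cebpb, an early inducer of the cascade that is also active in inflamed macrophages, overlapped between the diets on both probes. The brighter one, at chr2:167515847-167515905, read 4.40 and 4.57 in HFD, against 4.20 and 4.50 in LFD, a difference of 0.13 (95% interval -0.28 to 0.53). The zipper probe also differed by 0.13 (interval -0.31 to 0.58). Short and long protein forms of C/EBP-beta come from 1 transcript, and no probe can separate them.

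Cebpd, an early factor induced by glucocorticoids and by acute-phase cytokines, had the largest positive difference of the members and the poorest precision. Its 1 probe, at chr16:15888459-15888518, read 4.01 and 4.43 in HFD, against 3.01 and 3.91 in LFD. Both HFD arrays lay above both LFD arrays, but the 2 LFD arrays were 0.89 apart, a gap wider than that of 97.3% of tested probes. The difference was 0.76 (SE 0.35, 95% interval -0.19 to 1.71, adjusted p = 0.208). It was 1.21 without LFD replicate 2 and 0.32 without LFD replicate 1, so its size depends on which LFD array is used.

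Cebpg, a family member without a strong activation domain that pairs with the others, had 3 probes, and they did not share a sign. The brightest, at chr7:35832751-35832810, read 0.81 and 0.86 in HFD, against 0.88 and 1.0 in LFD, a difference of -0.10 (95% interval -0.38 to 0.17). The zipper probe differed by 0.08 (interval -0.39 to 0.56). The dimmest, at chr7:35831917-35831976, differed by -0.18 (interval -0.47 to 0.12).

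Other genes of the same cascade were read from lists chosen with earlier results of these data known. Medians of these 7 lists are set beside a median of 0.02 over all genes, and the number tested is given with each list below. Over all genes 5.75% were called higher and 5.61% lower. In the 7 lists 13 genes were called higher and 10 lower in HFD, 6 of the higher ones in the inflammatory list. With median scaling the counts were 12 higher and 16 lower, and over all genes 852 and 1334, against 1019 and 995 as analysed. Fits without 1 array leave a diet with 1 array, and they called fewer genes over the whole array too. Their counts are therefore not given here.

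Partners of C/EBP proteins had no call among 9 tested genes (median 0.40), while Cebpe was not found under that name on the array. Nfil3, a basic zipper repressor, differed by -0.11 (SE 0.28) and the clock factor Dbp by 0.63 (SE 0.63).

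Of the other KLF and SP genes 14 of 15 were tested, with 1 higher, 1 lower and a median of -0.12. Klf14, an imprinted gene tied to adipose gene expression in humans, rose 4.47-fold: it read 0.44 and 0.33 in HFD, against -2.09 and -1.46 in LFD (log2 difference 2.16, SE 0.24, adjusted p = 0.0227). Klf12, a repressor, was dim on both HFD arrays (not well above background) and was tested only through LFD; it was at least 1.49-fold lower in HFD, and its adjusted p of 0.0476 uses HFD values at background; with normexp its difference was -0.35 and did not pass (adjusted p = 0.0703). Klf15, which raises Slc2a4 in cultured fat and muscle cells, read 1.61 and 1.85 in HFD, against 2.47 and 2.97 in LFD, a difference of -0.99 (SE 0.21, adjusted p = 0.0604) that passed in 5 of 15 alternatives.

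The best known partners at the centre of the cascade did not pass. Pparg, the master regulator of fat cells, read 4.75 and 4.76 in HFD, against 4.73 and 5.32 in LFD, a difference of -0.27 (SE 0.22, adjusted p = 0.426). Srebf1, a regulator of lipid synthesis, differed by -0.71 (SE 0.23, adjusted p = 0.120). Among all 18 tested adipogenic factors 2 were higher and 2 lower, with a median of -0.16. The higher ones were Egr2, an early growth response factor (4.90-fold), and Zfp423, a commitment factor of preadipocytes (1.75-fold). The lower ones were Nr3c1, the glucocorticoid receptor (1.57-fold), and Ebf2, a factor of brown and beige precursors (1.53-fold); adjusted p of these 4 lay between 0.0246 and 0.0490.

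Among inhibitors of adipogenesis 16 of 18 were tested, with 1 higher, 4 lower and a median of -0.34. The bone factor Runx2 rose 4.73-fold (log2 difference 2.24, SE 0.12, adjusted p = 0.0137; 1.32 with normexp). Besides Dlk1, the falls were those of Sox9, tested through LFD and above background on just 1 HFD array, so that its 3.08-fold is a measured value of low precision (log2 difference -0.83 with normexp), of Twist2 (1.52-fold) and of Gata2, a repressor of Pparg (log2 difference -0.62, adjusted p = 0.0433).

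Of 18 adipocyte targets of these factors none was called higher and 3 were lower, with a median of -0.23. Agt, the angiotensin precursor, fell 3.83-fold, Retn, which encodes resistin, 1.87-fold and the insulin receptor Insr 1.69-fold, the last losing its call by the mean of its probes (adjusted p = 0.0711). Adipoq, which encodes adiponectin, differed by -0.32 (SE 0.10, adjusted p = 0.119). Lep, the gene of leptin, read 5.72 and 5.76 in HFD, against 2.81 and 4.32 in LFD, and its difference of 2.18 did not pass (SE 0.53, adjusted p = 0.0729). Leaving out LFD replicate 1 gave 1.43 and leaving out LFD replicate 2 gave 2.93. Either fit drops the gap of 1.51 between the LFD arrays, so whether Lep passes cannot be judged from it. In alternatives with all 4 arrays its adjusted p in limma came as low as 0.0285. Slc2a4, the insulin-responsive glucose transporter, differed by -1.28 (adjusted p = 0.0581).

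Inflammatory genes that C/EBP proteins can drive in macrophages and liver stood at a median of 1.21, with 6 of 12 tested genes higher and none lower (Lcn2, Il6 and Ptgs2 were too dim to test). They included the acute-phase genes Saa3 (18.8-fold) and Hp (2.23-fold) and the chemokines Ccl2 (14.8-fold) and Ccl3 (4.51-fold, or a log2 difference of 1.30 with normexp against 2.17). The macrophage markers given with Klf6 moved with this list, and their part in it was not tested. Immediate early genes, which respond within minutes to stimuli and handling, had 3 of 18 higher, Atf3 (4.71-fold), Junb (2.27-fold) and Btg2 (1.44-fold), and a median of 0.22.

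**Figure D4:**
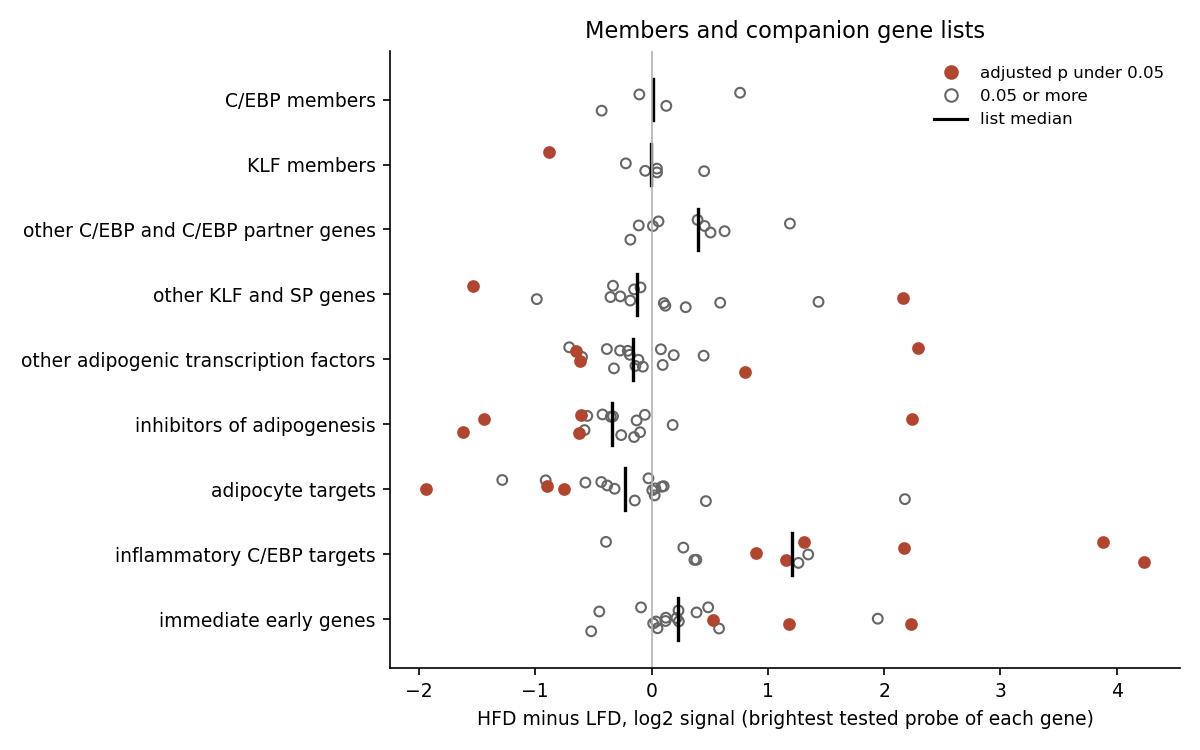
Difference in log2 signal, HFD minus LFD, of every tested gene of the C/EBP and KLF members and of 7 companion lists, each by its brightest tested probe; filled points passed an adjusted p of 0.05 and black lines are list medians. The members lie within 1 log2 unit of 0, while the inflammatory list reaches above 4.

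Promoter sequences from RefSeq (GRCm38.p6, a short window around the gene start) matched 8 of the 10 genes, not Cebpd and Klf5, and were searched on both strands. The letters CACCC, read by KLF proteins, were found in 5 of the 8 (62.5%), against 57.5% of all 32851 promoters, with 5 matches in Klf3. The GC box GGGCGG was found in 6 of 8 (75%), against 35.7% of all. CCAAT was found in 3 of 8 (37.5%), against 37.4% of all, and TTNNGCAA, a C/EBP site, in none of the 8, against 10.8% of all. These are matches of letters in a short window.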

How the data were processed

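RNA of 4 samples, 2 per diet (500 ng each, per the labels), was hybridised to 1-colour arrays. The authors deposited spot intensities from Agilent Feature Extraction (11.5.1.1 in the submitters' processing notes, 11.0.1.1 per the file headers), detrended spatially and multiplicatively within arrays with low signals replaced by surrogates, per the header settings, with 0 or 1 flags per spot that fall under other values. The deposited value table is the ratio of each processed signal to its array's 75th percentile, linear and uncentred, as division showed; its column medians were 0.130 and 0.131 (HFD) and 0.117 and 0.127 (LFD).

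The values analysed were log2 processed signals, with the 75th percentile of each array subtracted. Spots of a probe were averaged, spots flagged as outliers (60 to 115 per array) were left out, and none was saturated. A probe entered the test if both arrays of 1 diet or more had it well above background; the test was run with limma 3.58.1 in R 4.3.3 (HFD minus LFD, two-sided, Benjamini-Hochberg over all tested probes, threshold 0.05, 2 residual and 2.24 prior degrees of freedom). A gene is represented by its tested probe of highest mean signal. Companion genes were named through RefSeq accessions (27668 of 41174 probes matched, GRCm38.p6, names only). For a gene dim on both arrays of a diet the fold is a bound: the mean of the brighter diet over that of the dim diet, each dim array set to no less than its lowest well-detected signal, which holds only under this background handling. The fit was tested on simulated data. The number of arrays limits the precision.

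Members and lists were chosen with earlier results of these data known. Named genes were all members, up to 4 called genes of smallest p per companion list (the 2 brightest where none was called), 6 fixed partners and targets, and the 3 genes closest to the called member; Gata2 and the genes of the list added later stand outside this rule. Marker lists were macrophage, endothelium, lymphocyte, mesothelium, epithelium, fibroblast and preadipocyte, adipocyte and skeletal muscle. Alternatives were normexp (offset 50), quantile and median scaling, the deposited table, other dim-probe filters, each array left out, gene-level means of probes, outlier spots kept, a replicate block, trend and robust options, and thresholds of 0.10 and 2-fold.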

Additional observations from a re-analysis of the deposited data

How the results depend on the processing

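Of the values for members under alternatives, 237 kept their sign and side of the threshold, 8 lost a call (all Klf5), 3 gained one (all Klf6) and 13 changed sign, none of these a called probe. The dim-probe filters, outlier spots kept, the trend and robust options and the block left the log2 differences of members unchanged. The deposited table hardly changed them, and fits without 1 array have less power to call. These counts are therefore no measure of stability. Leaving out each array gave log2 differences of -0.023 to 0.28 and -0.058 to 0.33 for the brighter and dimmer Cebpb probes, -0.12 to 0.29 for the Cebpg zipper probe, -0.083 to 0.18 and -0.39 to 0.045 for the brighter and dimmer Klf2 probes, -0.040 to 0.13 for Klf4, and -0.33 to 0.22 and -0.42 to 0.046 for the brighter and dimmer Klf9 probes. Of companions, Nfil3 gave -0.41 to 0.19, Dbp -0.26 to 1.52 and Pparg -0.56 to 0.021. With median scaling the Cebpg zipper probe gave -0.0036, the brighter Klf2 probe -0.041 and Klf4 -0.041. Klf2 gave -0.064 by the mean of its probes and Klf4 -0.011 with normexp. The cause of these changes was not tested.

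Members called numbered 1 higher and 0 lower with normexp and with probes well above background on 4 arrays (which leaves out Klf5). They numbered 1 and 1 at a threshold of 0.10 and with the trend and robust options. With a 2-fold minimum, with probes above background on at least 1 array and with no filter they numbered 0 and 0. Companions called numbered 20 higher and 15 lower with normexp, 12 and 16 with median scaling, 18 and 14 with all 4 arrays above background, 11 and 3 with at least 1, 0 and 0 with no filter, 18 and 23 with trend and robust options, 22 and 21 at 0.10 and 10 and 4 with a 2-fold minimum. Over all genes the counts were 1019 and 995 as analysed, 1535 and 1182 with normexp and 852 and 1334 with median scaling. They were 1598 and 1310 with all 4 arrays above background, 520 and 446 with at least 1, and 1826 and 1808 with trend and robust options. At 0.10 they were 2260 and 2188, and with a 2-fold minimum 496 and 472. With no filter 0 of all 27613 genes passed in either direction. Counts of genes called without 1 array are not given, since the lone array of a diet is then assumed to vary like the other diet. With the replicate number as a block, members called numbered 0 higher and 0 lower (Klf5 adjusted p = 0.0701 in limma) and companions 7 and 2. The block gave 220 higher and 208 lower over all genes. The deviations of same-numbered arrays correlated with r = -0.0046 across probes. This gives no sign of a pairing across probes as a whole, but it cannot exclude one that acts on few probes. Klf5, Klf12 and Sox9 were not well above background on every HFD array, which limits their values.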

Other observations

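The 2 LFD arrays differed for many members. For 15 of 18 tested probes LFD replicate 2 read higher than LFD replicate 1, as it did for 60.9% of all tested probes, and this held for all 14 member probes with a mean log2 signal above 0 (58.7% of all such probes). The median absolute gap was 0.27 between the LFD arrays and 0.12 between the HFD arrays for members, against 0.16 and 0.11 over all tested probes. Cebpd (0.89) and the Klf9 probes (0.55 and 0.47) had the widest LFD gaps of the members.

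Because Cebpd and Klf9 are known glucocorticoid targets, other genes of that kind were read as a list, added after these values were seen and described without a test. All 9 tested genes of the list read higher on LFD replicate 2 than on LFD replicate 1, with a median gap of 0.91, among them Fkbp5 (1.38), Per1 (1.19), Sgk1 (1.02), Tsc22d3 (0.91) and Dusp1 (0.80). Their summed level was 103 and 99.1 in HFD, against 31.2 in LFD replicate 1 and 51.0 in LFD replicate 2. Mt2 was the brightest of the list and weighs most in these sums. Its log2 signal was 5.83 and 5.72 in HFD, against 3.09 and 3.65 in LFD. The metallothioneins Mt1 and Mt2 were the 2 of the 9 called higher in HFD, and Errfi1 was on the lower side (log2 difference -0.26). Of the adipocyte targets, 17 of 18 also read higher on LFD replicate 2, whereas lymphocyte markers had a summed level of 3.92 there and 12.0 on LFD replicate 1 (5.97 and 7.39 in HFD), with none of 12 called. Of 12 fibroblast and preadipocyte markers none was called higher and 2 were lower, and none of 8 skeletal muscle markers was called.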
